A study of Drosophila melanogaster with 3 samples.

Results

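The 4 Frizzled receptors of Drosophila melanogaster (fz, fz2, fz3 and fz4), the co-receptor arrow (arr), the transducers dishevelled (dsh) and armadillo (arm), the nuclear factor pangolin (pan), the kinase shaggy (sgg) and the scaffold Axin (Axn) were examined for peaks of the forkhead transcription factor Jumeau. These 10 genes were chosen by name, out of 13945 protein-coding genes on the 6 major chromosome arms. A peak was given to a gene when its summit, the base of highest signal, lay inside the gene or within 5 kb of either end. By that rule the 10 genes held 21 of the 3845 peaks in the authors' optimal list, the list thresholded for reproducibility between replicates. They also held 138 of the weaker peaks in the relaxed list called on the pooled replicates. The assignment is by position, and it does not show that a peak acts on the gene it was given to.

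The data came from chromatin immunoprecipitation followed by sequencing (ChIP-seq) in 3 biological replicates of 1 group, with no other group to compare. All 3 replicates were whole embryos, male and female together, aged 0 to 24 hours, of the strain jumu-MiMIC-GFP. In that strain an eGFP exon sits in an intron of jumu, so that Jumeau is made as an eGFP fusion, and an antibody against GFP was used for the precipitation. Chromatin was sonicated to 200 to 800 bp, per the labels. Whole embryos mix all tissues and ages, so a peak cannot be placed in any cell type or stage, and no marker of a cell type could be checked in peak lists. A control alignment named in the deposited readme files was not analysed here, and signal from open chromatin or from the antibody was therefore not told apart from binding. The peak lists give no read depth. Signals of the optimal list ran from 112.0 to 3722, with a median of 180.6 and a median width of 420 bp, and exactly 3845 pooled peaks reached the weakest optimal signal. Signal is the peak caller's own value, deposited by the authors, and it ranks peaks within a list.

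Wnt proteins bind Frizzled receptors, which span the membrane, together with Arrow, the fly member of the LRP family. The signal passes through Dishevelled and stops a complex of Axin, Shaggy (the fly GSK-3) and other proteins from marking Armadillo, the fly beta-catenin, for destruction. Armadillo then enters the nucleus and acts with Pangolin, the fly TCF, on Wnt target genes. Fz and Dishevelled also serve planar cell polarity, which does not use Armadillo. In the fly embryo, Wnt signalling is needed to specify the heart, and genetic work has linked jumu to fz in the specification of cardiac progenitors. Jumeau is a forkhead protein of the FoxN class.

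The DNA around the summits is shown for the strongest optimal peak of each gene outside arr that had one, and for their other peaks whose window held a listed word. No window of arr is shown. Each line gives the peak, numbered along the chromosome, its dm6 window, reaching 50 bp to either side of the summit, and the plus strand of that window from 5′ to 3′. The sequences were read from the RefSeq Release 6 assembly, the same assembly as dm6. Capitals mark a listed word or its reverse complement: CGATA or TATCG (the core of the DNA replication-related element), GACGC (a site bound by FoxN forkheads), TAAACA (the common forkhead core) and GAGAG or CTCTC (the GAGA factor site). Windows with no capitals held none of the 8 words searched.
fz peak 2, chr3L:14304008-14304108: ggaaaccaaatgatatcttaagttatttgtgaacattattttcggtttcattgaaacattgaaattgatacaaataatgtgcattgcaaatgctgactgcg
fz peak 3, chr3L:14339028-14339128: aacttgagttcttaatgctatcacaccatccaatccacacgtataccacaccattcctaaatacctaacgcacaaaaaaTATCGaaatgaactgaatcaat
fz peak 1, chr3L:14297602-14297702: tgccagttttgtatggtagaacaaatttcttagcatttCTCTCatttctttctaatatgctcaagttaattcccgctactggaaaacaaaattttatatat
fz2 peak 3, chr3L:19190886-19190986: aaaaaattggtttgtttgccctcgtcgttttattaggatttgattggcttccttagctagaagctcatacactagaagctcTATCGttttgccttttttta
fz3 peak 1, chrX:765137-765237: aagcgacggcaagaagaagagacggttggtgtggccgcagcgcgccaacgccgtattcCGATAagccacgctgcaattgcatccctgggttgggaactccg
dsh peak 1, chrX:11351477-11351577: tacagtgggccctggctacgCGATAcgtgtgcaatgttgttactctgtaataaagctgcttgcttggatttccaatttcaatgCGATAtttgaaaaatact
arm peak 1, chrX:1890064-1890164: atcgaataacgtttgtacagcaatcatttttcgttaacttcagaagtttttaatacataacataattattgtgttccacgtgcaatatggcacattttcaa
pan peak 1, chr4:67222-67322: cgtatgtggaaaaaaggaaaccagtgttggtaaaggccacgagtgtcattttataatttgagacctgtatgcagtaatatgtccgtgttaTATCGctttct
sgg peak 1, chrX:2646400-2646500: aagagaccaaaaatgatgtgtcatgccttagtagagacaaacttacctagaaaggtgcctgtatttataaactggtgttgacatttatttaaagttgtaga
sgg peak 2, chrX:2647557-2647657: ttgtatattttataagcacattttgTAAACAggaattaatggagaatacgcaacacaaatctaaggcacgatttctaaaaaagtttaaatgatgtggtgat
Axn peak 1, chr3R:30022679-30022779: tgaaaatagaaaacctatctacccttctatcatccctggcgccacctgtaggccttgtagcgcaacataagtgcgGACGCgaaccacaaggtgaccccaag
The windows of the 2 strongest peaks, peak 2 of fz and peak 1 of sgg, held none of the words. The window of dsh peak 1, the next in signal, held CGATA at 2 places.

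Of the 10 genes, 9 had at least 1 optimal summit in the gene or within 5 kb, and fz4 had none. The same held for 46.2% of all protein-coding genes. Long genes have more room for peaks, so the count was also split at 20 kb. All 5 members of 20 kb or longer (fz, fz2, arr, pan and sgg) had an optimal summit, against 60.8% of genes of that length, and 4 of the 5 shorter members had one, against 45% of shorter genes. A summit inside the gene itself was present in 6 members (fz, fz2, fz3, arr, arm and sgg), against 10.9% of genes. At least 3 optimal summits were present in 4 members (fz, fz2, fz3 and arr), against 7.08% of genes. No test was made of these shares, because the genes were chosen by name with earlier results of these data known. The counts of summits inside the gene and of at least 3 summits were not split by length. Of the 10 members, 5 were 20 kb or longer, against 1013 of the 13945 genes.

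The genes and their 5 kb flanks covered 451.7 kb and held 4.65 optimal summits per 100 kb, against 3.29 per 100 kb over all protein-coding genes and their flanks. The relaxed pooled list showed a gap of similar size, with 35.2 peaks per 100 kb at the members and 24.9 per 100 kb over all genes. The share of pooled peaks that reached the optimal list was 13.2% at the members and 13.2% over all genes. Per length the genes with their flanks, as a set, thus held more peaks of both lists, with no higher share of optimal ones. Single genes differed. Optimal summits per 100 kb were below 3.29 at fz (2.88), fz2 (2.87), pan (1.82) and fz4 (0). They were above it at arr (12.6), fz3 (12.4), arm (10.4), dsh (7.79), Axn (4.45) and sgg (3.60). In the relaxed pooled list only pan (5.46) was below 24.9. Of the 21 optimal summits, 13 lay inside a member, 4 upstream and 4 downstream. Density without the flanks was not computed.

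**Figure D1:**
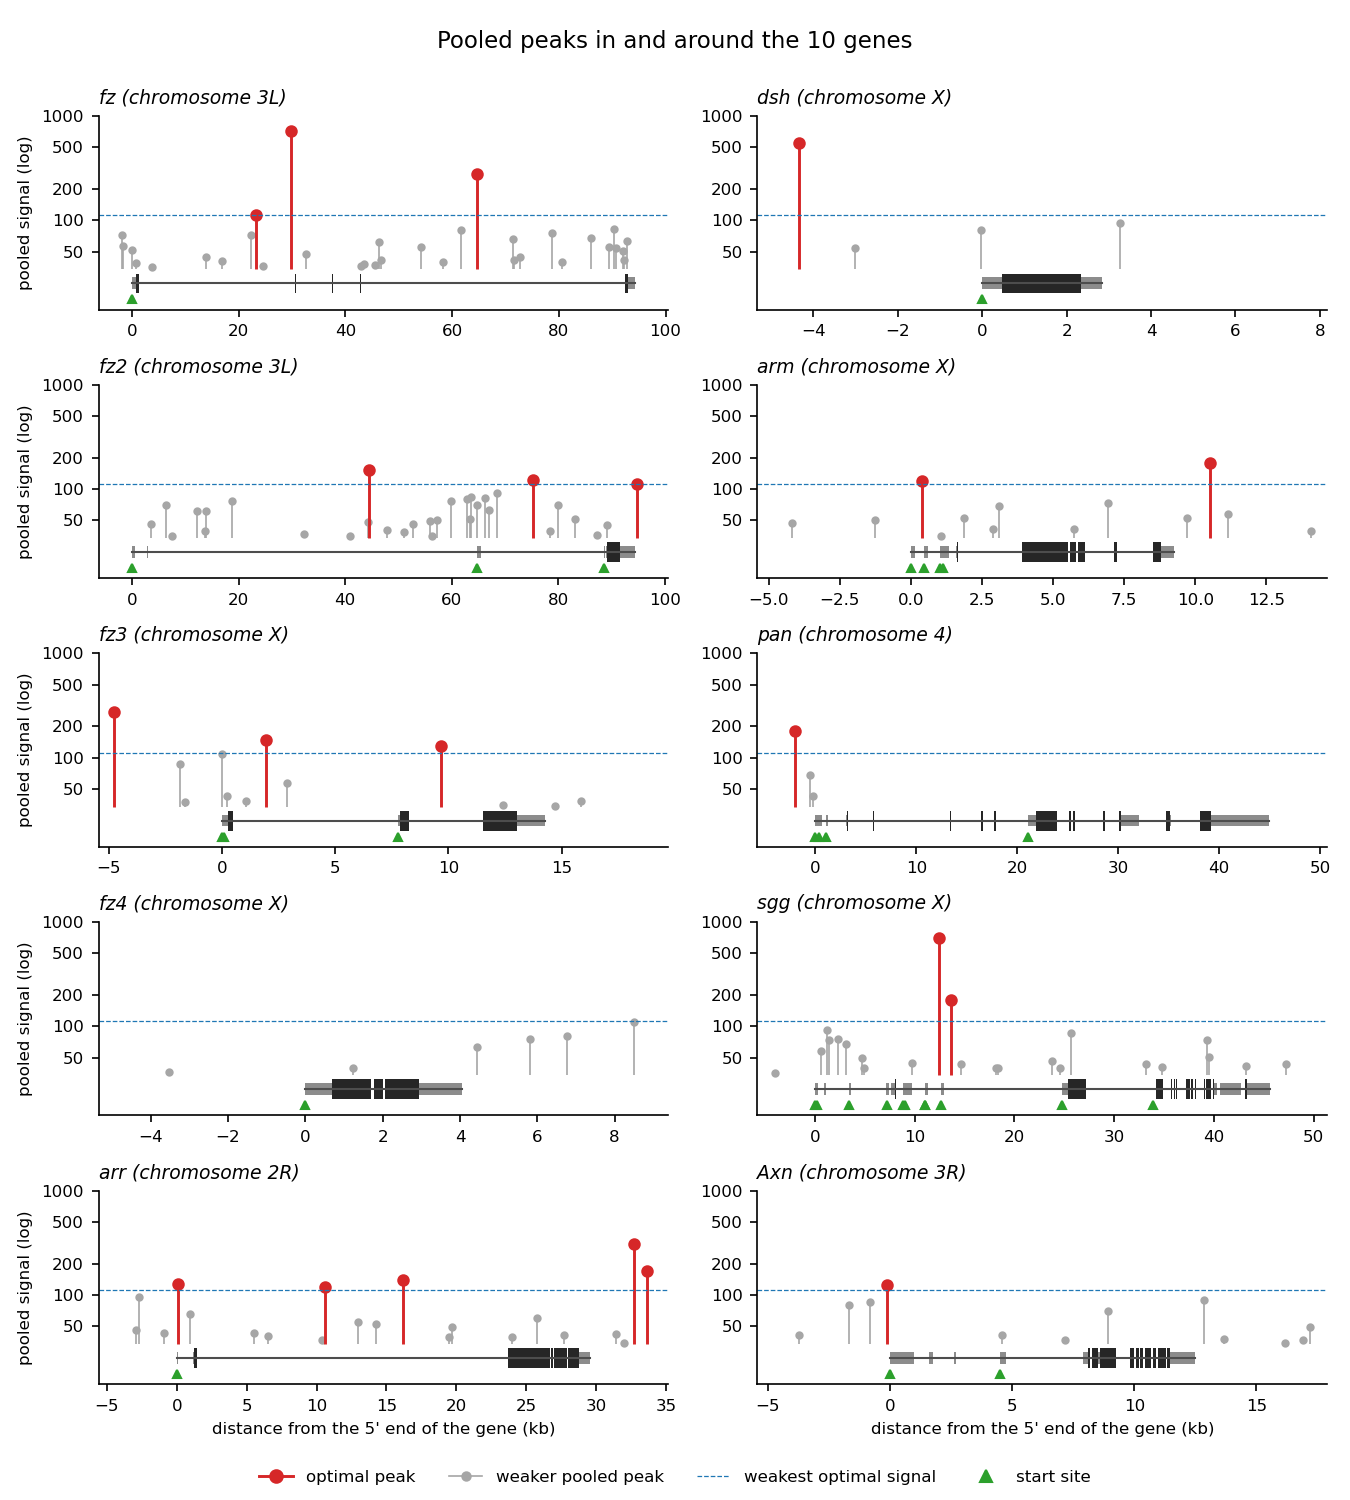
Pooled signal (log axis) of every relaxed peak against the distance in kb from the 5′ end of each of the 10 genes, with the transcribed strand running left to right; red marks optimal peaks, grey marks weaker pooled peaks, the dashed line is the weakest optimal signal, boxes are exons (dark where coding) and triangles are start sites. Peak 2 of fz at 718.7, peak 1 of sgg at 700.4 and the peak upstream of dsh at 554.8 stand above all others, and fz4 has no peak above the line.

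**Figure D2:**
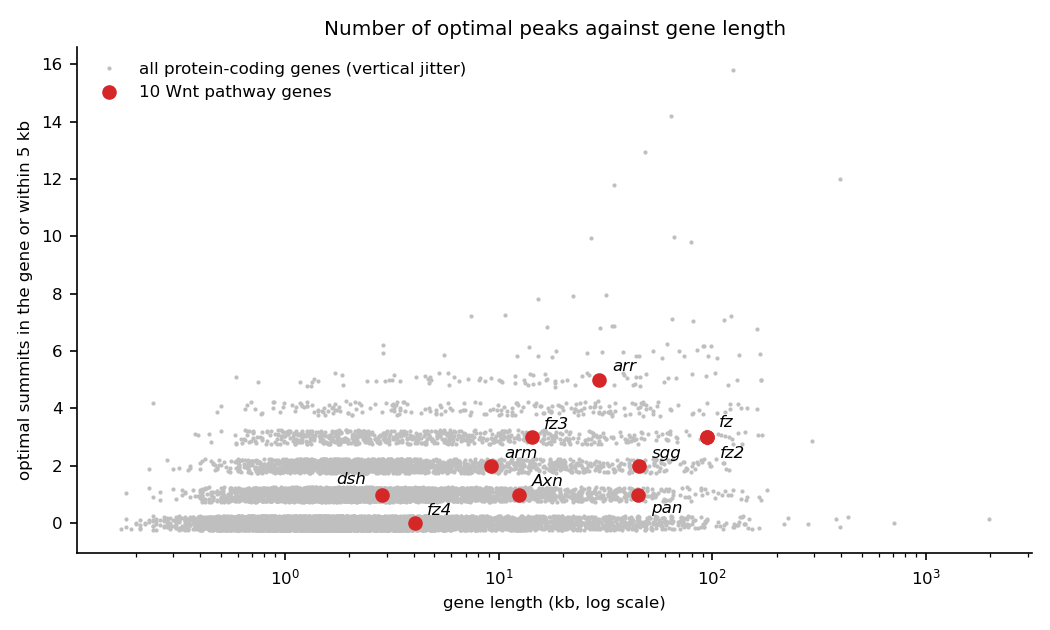
Number of optimal summits in the gene or within 5 kb against gene length in kb (log axis) for all 13945 protein-coding genes (grey, with vertical jitter) and the 10 Wnt pathway genes (red). The members run from 0 summits in fz4 to 5 in arr.

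The receptor gene fz (FBgn0001085) carried the strongest peak of all 10 genes. It spans chr3L:14274343-14368639 on the plus strand, 94.3 kb with 1 start site, and held 3 optimal and 30 weaker pooled peaks. Peak 2 of fz (chr3L:14303935-14304187) had a pooled signal of 718.7, rank 125 of 3845. Replicate 1 gave 278.5, replicate 2 gave 192.4 and replicate 3 gave 240.0. All 3 replicates placed it among their strongest peaks, at ranks 141, 182 and 81 of 30000. The summit lay 29715 bp from the start site of fz, and 25288 bp from the nearest other coding start site, that of CG13482. It fell in intron 1 of 4, which is 29.17 kb long.

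Peak 3 of fz (chr3L:14338868-14339287) lay in intron 4 of 4, which is 49.41 kb long, at 64735 bp from the fz start site and 9732 bp from that of CG13482, whose start site lies in the same intron. Its pooled signal was 281.1 (rank 921), with 116.0, 90.4 and 77.7 in replicates 1, 2 and 3. Peak 1 of fz (chr3L:14297442-14297861) lay in intron 1 as well, 6406 bp before peak 2, with a pooled signal of 113.9 (rank 3756) and replicate signals of 43.5, 25.3 and 43.8. The 3 peaks of fz thus stood far apart in strength, and peak 1 stood just above the lower end of the list. The promoter of fz held no optimal peak. A weaker pooled peak of 52.2 (rank 13644) lay 50 bp from the start site and was matched only in replicate 1, at 34.1.

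The gene fz2 (FBgn0016797) encodes the other Frizzled receptor with a main role in Wingless signalling, acting redundantly with fz. It is as long as fz, 94.4 kb at chr3L:19140975-19235373 on the minus strand, and it also held 3 optimal peaks, but all were weak. Peak 3 of fz2 (chr3L:19190726-19191145), in an intron 20288 bp upstream of the start site of the transcript fz2-RB, had a pooled signal of 151.8 (rank 2511). Its replicate signals were 56.7, 42.2 and 53.4 in replicates 1, 2 and 3. Peak 2 of fz2 (chr3L:19159867-19160286), in an intron 10571 bp from that start site, had a pooled signal of 122.2 (rank 3384) and replicate signals of 51.1, 22.3 and 49.9. Peak 1 of fz2 (chr3L:19140327-19140746) lay 438 bp past the 3′ end of the gene and 1562 bp upstream of CG14082. At 112.1 it was rank 3842 of 3845, and its replicate signals were 45.1, 22.8 and 47.0. In peaks 1 and 2 replicate 2 stood clearly below the other replicates. The 3 start sites of fz2 had no optimal summit within 1 kb, and the nearest pooled peak, 38 bp from a start site, had a signal of 69.8 (rank 7935).

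The gene fz3 (FBgn0027343), known as a target of Wingless signalling, is 14.3 kb long (chrX:769945-784222, plus strand) and had 3 optimal peaks. Its strongest, fz3 peak 1 (chrX:765111-765228), lay 4758 bp upstream of fz3 but only 57 bp upstream of RpL22, which encodes a protein of the large ribosomal subunit. Pooled signal there was 272.4 (rank 985), with 114.1, 102.3 and 69.4 in replicates 1, 2 and 3. The other peaks lay inside fz3 and had fz3 as the nearest coding gene. Peak 2 of fz3 (chrX:771695-772114), 1879 bp past a start site in intron 1, had a pooled signal of 147.0 (rank 2643) and signals of 67.1 in replicate 1 and 49.9 in replicate 3, with no summit within 100 bp in replicate 2, whose overlapping peak of 31.8 had its summit 114 bp away. Peak 3 of fz3 (chrX:779414-779833), 1890 bp past the start site of fz3-RB, had a pooled signal of 130.4 (rank 3091) and replicate signals of 52.2, 21.6 and 42.1. Replicate 2 was thus the lowest at both peaks inside fz3. At the fz3 start site itself a pooled peak 2 bp away reached 108.2 (rank 4042), just under the weakest optimal signal, with 32.2 in replicate 2, 25.9 in replicate 3 and no match in replicate 1. A further pooled peak, 122 bp from a start site of fz3, had a signal of 42.6 (rank 20385). Replicate 1 did have a match there, at 39.9, and replicate 2 had 20.1.

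The remaining Frizzled gene, fz4 (FBgn0027342; chrX:7106272-7110321, minus strand, 4.05 kb), had no optimal peak, and the nearest optimal summit lay 12122 bp from its start site. It held 6 weaker pooled peaks. The strongest had a signal of 109.3 (rank 3982) and lay 474 bp from the start site of CG4615 and 8495 bp from that of fz4, with replicate signals of 54.6, 39.9 and 19.9. Of the 10 genes, fz4 was also the only one with no pooled summit within 1 kb of a start site, the nearest lying 1225 bp away. The lowest signal in the pooled list was 34.3, and the lack of a listed peak does not show that Jumeau was absent.

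The co-receptor gene arr (FBgn0000119; chr2R:13453640-13483229, minus strand, 29.6 kb) had the most optimal peaks of the 10 genes, 5, of which 3 lay inside the gene. Peak 5 of arr (chr2R:13482956-13483375) lay at its own promoter, 63 bp past the single start site, with a pooled signal of 127.1 (rank 3215). Replicate signals there were low, 33.7, 16.1 and 23.4 in replicates 1, 2 and 3, at ranks 6145, 27033 and 9288 of 30000. They depended on the matching distance, because replicate 3 also had a peak of 70.3 (rank 1232) with its summit 111 bp away. With matches within 250 bp the mean relative signal of this peak (signal over the replicate's median at matched optimal peaks) was 0.660 in place of 0.386.

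Peaks 3 and 4 of arr lay in its intron 2 of 6, which is 22.25 kb long. Peak 3 (chr2R:13466830-13467249) had a pooled signal of 139.8 (rank 2831), with replicate signals of 50.6, 42.8 and 40.6. Peak 4 (chr2R:13472403-13472822) had a pooled signal of 118.2 (rank 3553), with replicate signals of 63.1, 45.2 and 32.1. Both were matched in all 3 replicates, and the nearest coding start site was that of CG43192, at 10302 bp and 4729 bp. The other peaks lay past the 3′ end of arr, 989 bp from each other. Peak 2 of arr (chr2R:13450324-13450743), 52 bp upstream of Golgin97, was the strongest of the 5 at 306.9 (rank 782). Replicates 1 and 3 gave 123.2 and 129.9 and replicate 2 gave 48.9, so that relative to the replicate medians its SD was the largest among the 6 strongest member peaks. Peak 1 of arr (chr2R:13449335-13449754), 145 bp upstream of a start site of centrosomin (cnn), had a pooled signal of 170.6 (rank 2097) and replicate signals of 81.5, 54.3 and 43.2.

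The gene dsh (FBgn0000499; chrX:11355881-11358724, plus strand, 2.84 kb) encodes the cytoplasmic protein that relays the signal from Frizzled receptors. Its only optimal peak (chrX:11351422-11351645) was the third strongest of the 21, with a pooled signal of 554.8 (rank 231). Replicates 1, 2 and 3 gave 224.5, 186.2 and 139.7, and each placed it within its 302 strongest peaks. The summit lay 4354 bp upstream of dsh, inside an intron of CG1737 and 919 bp past the start site of that gene. The dsh promoter had a weaker pooled peak of 81.5 (rank 6127) at 27 bp from the start site, with 31.9 in replicate 1, 31.1 in replicate 3 and no match in replicate 2.

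The gene arm (FBgn0000117; chrX:1891401-1900646, minus strand, 9.25 kb) had an optimal peak at its own promoter and another past its 3′ end. Peak 2 of arm (chrX:1900055-1900474), 92 bp upstream of the start site of arm-RA, had a pooled signal of 120.4 (rank 3466), with replicate signals of 23.6, 37.6 and 46.7 in replicates 1, 2 and 3. Peak 1 of arm (chrX:1889904-1890323), 1287 bp past the 3′ end and 142 bp upstream of mRpL16, a gene of the mitochondrial ribosome, had a pooled signal of 177.5 (rank 1976) and replicate signals of 61.2, 60.5 and 53.5. Relative to the replicate medians, the signals at the mRpL16 promoter were 0.818, 1.04 and 0.983. At the arm promoter replicate 1 was the lowest, where replicate 2 or 3 was the lowest at most other peaks.

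The gene pan (FBgn0085432; chr4:69326-114270, plus strand, 44.9 kb) had few peaks for its length. It held 1 optimal and 2 weaker pooled peaks, and all 3 lay upstream of the gene, so that none was found inside its 44.9 kb. The optimal peak (chr4:67062-67481) lay 2054 bp upstream of pan and 65 bp upstream of RpS3A, a gene of the small ribosomal subunit. Its pooled signal was 179.7 (rank 1942). Replicate 1 gave 73.6, at rank 1968 of 30000. Replicate 3 gave 22.05, at rank 10436 and with its summit 96 bp away, near the 100 bp limit for a match. Replicate 2 listed no peak at all at pan. That replicate listed few peaks on the whole of chromosome 4, with 47 of 30000, against 179 in replicate 1 and 208 in replicate 3. The pooled list held 95 peaks on the 1348131 bp of chromosome 4 and the optimal list 14. Few peaks per length were thus seen over that chromosome and not at pan alone. The part of this in the counts at pan was not tested. The stronger of the weaker pooled peaks, 501 bp upstream of the pan start site, had a signal of 67.8 (rank 8356) and was matched only in replicate 1, at 42.0.

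The kinase gene sgg (FBgn0003371; chrX:2633952-2679553, plus strand, 45.6 kb) had 11 start sites and an optimal peak next to the start site of the transcript sgg-RQ. Peak 1 of sgg (chrX:2646301-2646608), 187 bp upstream of that start site, had a pooled signal of 700.4 (rank 129), nearly that of fz peak 2. The replicate signals were 290.6, 220.2 and 185.4 in replicates 1, 2 and 3, at ranks 124, 139 and 154 of 30000. For most sgg transcripts this site is intronic, lying in an intron of 27.82 kb in 8 of the 19. Peak 2 of sgg (chrX:2647397-2647816), 1157 bp further on and 970 bp past the same start site, had a pooled signal of 178.3 (rank 1968) and replicate signals of 63.7, 61.4 and 44.9. The other sgg start sites had no optimal summit within 1 kb, and the strongest of the 21 weaker peaks, 990 bp from another sgg start site, had a signal of 91.5 (rank 5174).

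The scaffold gene Axn (FBgn0026597; chr3R:30022842-30035311, plus strand, 12.5 kb) had 1 optimal peak (chr3R:30022519-30022938), 113 bp upstream of its first start site and 81 bp upstream of RpS28a, a ribosomal gene whose start site lies nearer. The pooled signal was 125.1 (rank 3276), and replicates 1, 2 and 3 gave 43.2, 42.0 and 36.2. Relative to the replicate medians these were 0.578, 0.722 and 0.664. The strongest of its 11 weaker peaks, 88.8 (rank 5407), lay over the coding sequence of a gene past the 3′ end, 1159 bp from the start site of ZIPIC, with replicate signals of 18.3, 41.3 and 32.6.

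The 10 genes thus differed in where their peaks lay. By class, 9 of the 21 optimal summits (42.9%) lay within 500 bp of an annotated start site, 11 (52.4%) in introns and 1 (4.76%) between genes. Over the whole optimal list 57.5% of summits were promoter, 28.7% intronic and 11.4% intergenic. That list was not limited to summits in a gene or within 5 kb of one, as the member peaks were. It was also not matched to the members for gene or intron length, so the shares are not on equal terms. Of the 9 promoter summits, only 3 (sgg peak 1, arr peak 5 and arm peak 2) were nearest to the member's own start site. The other 6 were nearest to RpL22, RpS3A, mRpL16, RpS28a, Golgin97 and cnn. Of the 11 intronic summits, 10 lay in an intron of the member, at 970 to 64735 bp from its nearest start site, with a median of 13402.5 bp. In all, the nearest coding start site was that of the member at 9 of the 21 peaks and that of another gene at 12.

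The start sites of 4 of the 10 members (arr, arm, sgg and Axn) had an optimal summit within 1 kb, against 22.4% of all protein-coding genes. In the relaxed pooled list, 9 of 10 members had such a summit, against 63.4% of genes, and 10 of 10 had a pooled summit in the gene or within 5 kb, against 91.4% of genes. For the 1 kb counts any start site of a gene sufficed, so genes with many start sites had more chances. No adjustment was made for their number, which was 11 in sgg, 4 in arm and 1 in arr. Apart from sgg, the count of 4 rested on weak peaks. It fell to 1, sgg, among the 1922 strongest optimal peaks. When replicate 1, 2 or 3 was left out and the peak had to be among the 3845 strongest of each of the other replicates, the count was 2, 1 and 1. The share of all genes was not recomputed for these shorter lists, so the lower counts do not set the members apart.

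In signal, 3 of the 21 peaks (fz peak 2, sgg peak 1 and dsh peak 1) were in the top 10% of the optimal list, 6 were among the 1922 strongest and 15 were not. The median signal was 151.8 at the members and 180.6 over the optimal list.

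**Figure D3:**
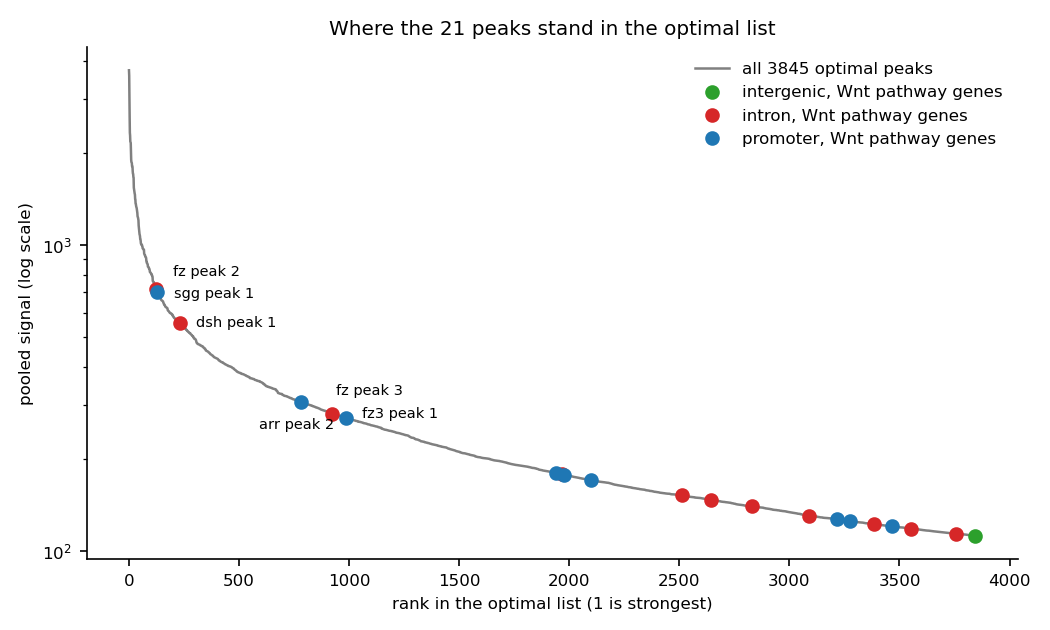
Pooled signal (log axis) against rank in the optimal list for all 3845 optimal peaks (line) and the 21 peaks of the 10 genes (points, coloured by class). Of the 21 points, fz peak 2, sgg peak 1 and dsh peak 1 sit at ranks 125, 129 and 231, and 15 sit to the right of rank 1922.

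Replicates were set side by side after each signal was divided by its replicate's median over matched optimal peaks, which was 74.8, 58.1 and 54.5 in replicates 1, 2 and 3. A peak counted as matched when a replicate had a summit within 100 bp. All 21 member peaks were matched in replicate 1, 19 in replicate 2 and 21 in replicate 3. Thus 19 (90.5%) were matched in all 3, close to the 88.7% of all optimal peaks, and the exceptions were pan peak 1 and fz3 peak 2, both unmatched in replicate 2. At pan that replicate listed no peak, while at fz3 peak 2 it had an overlapping peak with its summit 114 bp away, so that 20 were matched within 250 bp. A stricter reading, in which the match had to be among the 3845 strongest peaks of all 3 replicates, held for 11 of the 21 (52.4%), against 57.6% of all optimal peaks. Across the 19 member peaks the rank correlation of signal (Spearman's rho) was 0.87 between replicates 1 and 2, 0.74 between 1 and 3 and 0.70 between 2 and 3. Across all 3411 optimal peaks matched in every replicate it was 0.79, 0.75 and 0.70. These peaks share libraries and depth, so rho is a description.

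The relative signal averaged 3.81 ± 0.553 at fz peak 2, 3.69 ± 0.256 at sgg peak 1 and 2.92 ± 0.328 at dsh peak 1 (SD, n = 3 replicates). Next came arr peak 2 at 1.62 ± 0.771, fz3 peak 1 at 1.52 ± 0.243 and fz peak 3 at 1.51 ± 0.0736. All other peaks matched in every replicate averaged under 1, down to 0.386 ± 0.0949 at arr peak 5, which at 0.660 was no longer the lowest with matches within 250 bp. Ordered by that mean, only 3 of the 18 neighbouring pairs had replicate ranges that did not overlap. The range of sgg peak 1 (3.40 to 3.89) lay above that of dsh peak 1 (2.56 to 3.21), which lay above that of arr peak 2 (0.842 to 2.38), and the range of fz peak 3 (1.43 to 1.56) lay above that of arm peak 1 (0.818 to 1.04). Compared within each replicate, the higher peak of the pair was higher in all 3 replicates in those 3 pairs and in 1 more, fz peak 1 above arr peak 5. The higher mean of fz peak 2 over sgg peak 1 was seen in 1 of the 3 replicates. With 3 values against 3, an exact permutation test could not go below p = 0.1, or p = 0.25 when paired by replicate, so no test of these pairs was made. The coefficient of variation over replicates had a median of 0.160 at the member peaks and 0.188 over all optimal peaks. Replicate 2 was the lowest in 8 of the 19 peaks (42.1%), against 37.2% of all optimal peaks.

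**Figure D4:**
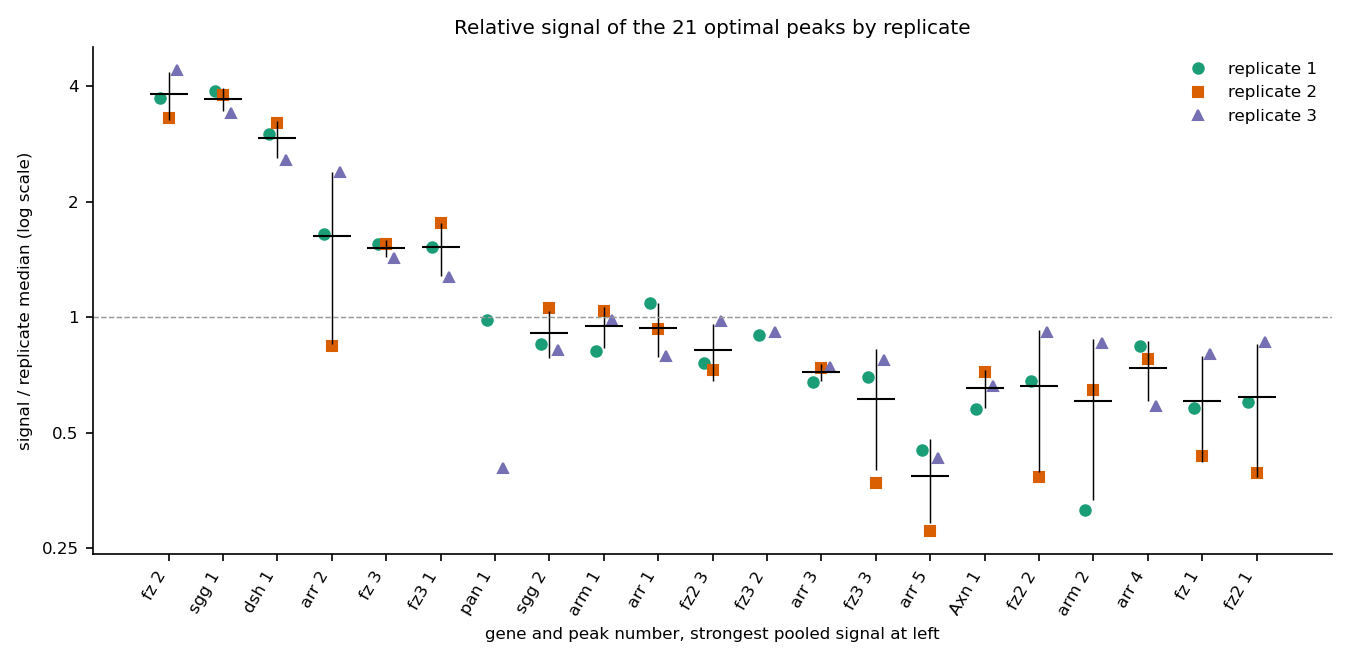
Relative signal (log axis, signal divided by the replicate's median over matched optimal peaks) of the 21 optimal peaks by replicate, ordered by pooled signal; black bars are the mean and its SD over 3 replicates where all 3 matched, and the dashed line is the replicate median. The points of fz peak 2, sgg peak 1 and dsh peak 1 all lie at or above 2.56, while the 2 peaks without a replicate 2 point are pan peak 1 and fz3 peak 2.

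Most of the weaker peaks at these genes were not shared by all replicates. Of the 138, 19 (13.8%) had a match in all 3 replicates and 7 (5.07%) in none, against 13.4% and 9.01% of all weaker pooled peaks. Their classes were 53.6% intronic (74 peaks), 22.5% coding sequence (31) and 18.8% promoter (26), where all weaker pooled peaks were 29.4% intronic, 26.6% coding sequence and 25.6% promoter. As with the optimal peaks, the whole list was neither limited to peaks in or near genes nor matched for gene length. The replicate lists held 181, 132 and 169 peaks at the 10 genes in replicates 1, 2 and 3. Of these, 95, 58 and 84 had no counterpart in either other replicate. That share was not computed over the whole replicate lists, so these counts do not set the members apart. Among the 3845 strongest of the 30000 peaks of their replicate were 20, 21 and 23. The strongest weaker peak of fz had a pooled signal of 82.0 (rank 6065), in an intron 4963 bp from the start site of CG13481. That of fz2 had 90.8 (rank 5232), 3770 bp from its own start site, and was matched in all 3 replicates at 36.5, 28.9 and 32.0. At arr it had 96.3 (rank 4775) and lay 287 bp from the start site of cid, and at dsh it had 94.2 (rank 4944) and lay 95 bp from that of Pa1. At arm it had 73.1 (rank 7298), in an intron of arm. Over all 10 members, the strongest weaker peak lay within 1 kb of the member's own start site in 3 (fz3, pan and sgg). Among the replicate lists, the long receptor genes had the most peaks, with 37, 30 and 26 at fz and 40, 36 and 42 at fz2.

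The 8 words were sought on both strands in the same windows around all 21 summits, and a match is a description of the sequence only. CGATA was present in 6 of the 21 windows (28.6%): dsh peak 1, arr peak 2, fz peak 3, fz3 peak 1, pan peak 1 and fz2 peak 3. It was present in 20.5% of all optimal windows, 11.8% of windows at weaker pooled peaks and 21.4% of windows at all annotated start sites. The full element TATCGATA, which contains CGATA, was in none of the 21 windows and in 3.09% of all optimal windows, 0.709% of weaker windows and 3.76% of start sites. Of these 6 windows, 3 were at promoters of other genes (RpL22, RpS3A and Golgin97) and 3 were intronic.

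Of the forkhead words, GACGC was in 2 windows (9.52%), arr peak 2 and Axn peak 1, against 6.58% of all optimal windows, 13.3% of weaker windows and 11.8% of start sites. TAAACA was in 1 window (4.76%), that of sgg peak 2, against 13.4%, 7.04% and 10.7%. GAGAG was in 1 window, fz peak 1, against 10.7% of all optimal windows, 13.4% of weaker windows and 12.6% of start sites. CTTTGA, the core of the site bound by Pangolin, was in 1 window, arr peak 4, against 5.54%, 4.89% and 5.98%. GCCGCC, known as the helper site of Pangolin, and CAGGTA, bound by the early activator Zelda, were in no member window, where 2.99% and 2.00% of all optimal windows, 10.6% and 2.78% of weaker windows and 5.27% and 2.11% of start sites held them. In all, 10 of the 21 windows held at least 1 of the words and 11 held none. The windows were mostly rich in A and T, with a median GC content of 35.6% at the 21 member peaks and 36.6% over the optimal list. Single member windows ran from 22.8% to 60.4%, the highest being that of fz3 peak 1. The 138 weaker member peaks had a median of 47.5% and all weaker pooled peaks 49.5%.

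Another 35 genes of Wnt signalling were set beside the 10. Of these, 14 had an optimal summit within 1 kb of their start sites and 26 had one in the gene or within 5 kb, 52 optimal peaks in all, against the 22.4% and 46.2% of all genes given above. Neither count was split by gene length or adjusted for the number of start sites. By role, the first count was 1 of 7 ligands, 1 of 5 genes of ligand secretion and spread, 0 of 5 other Wnt receptors, 3 of 4 planar polarity genes, 4 of 6 genes of the destruction complex and its kinases and 5 of 8 nuclear or feedback genes. Neither the receptors outside the Frizzled family (drl, dnt, Drl-2, Ror and otk) nor the 4 Frizzled genes had an optimal summit that close to a start site. Since only 22.4% of all genes had one, groups this small do not set the receptors apart. The counts per role are small and were not tested.

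Among the optimal peaks of these 26 genes, those at gish and gro were as strong as the strongest of fz and sgg, and no other exceeded a signal of 378.7. The summit 141 bp from a start site of gish, a casein kinase I gene, had a signal of 1067 (rank 51) and a relative signal of 5.66 ± 0.922, and the summit 120 bp from a start site of gro, the Groucho co-repressor that acts with Pangolin, had a signal of 723.1 (rank 123) and a relative signal of 3.79 ± 0.494 (SD, n = 3 replicates). Both lay at their own gene's promoter, as sgg peak 1 did, while fz peak 2 and dsh peak 1 did not. The kinase genes CkIalpha and dco had 234.3 and 313.3, and slmb, which encodes the ubiquitin ligase subunit that recognises marked Armadillo, had 268.2. The nuclear genes pygo, nej, CtBP and hyx had 201.4, 255.3, 149.1 and 129.7. The planar polarity genes Vang, pk and dgo had 138.8, 171.7 and 167.6, and at dgo the start site of Prosbeta5 was nearer, at 23 bp against 71 bp. The ligand gene Wnt6 had 143.8 and the glypican gene dlp, which affects how Wingless spreads, had 159.7. Farther from their start sites, dlp, Vang and dgo had stronger optimal peaks, of 339.3, 167.1 and 182.5. These lay 33554, 7521 and 3507 bp from a start site of the gene.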

How the data were processed

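The analysis started from narrowPeak lists in dm6. Per the deposited readme files, the authors called a relaxed list of peaks and background for each replicate and for the pooled replicates, to feed the irreproducible discovery rate procedure that thresholded the optimal list. Neither the peak caller, its settings and threshold nor the aligner and depth were stated in the sources used. Peak signal is a value deposited by the authors, used to rank and describe peaks within a list. The deposited −log10 q value per peak was not used for selection, and the deposited offset gave the summit. The dm3 lists, also deposited, were not used here.

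Gene models came from Ensembl BDGP6.54 (release 115), without transposable elements, and all coordinates are 1-based. A summit was promoter within 500 bp of any annotated start site, and the remaining summits were assigned to exons (untranslated or coding) before introns, and to introns before intergenic sequence. Replicate peaks were matched to pooled peaks where summits lay at most 100 bp apart, and the strongest match was kept. Matching, the promoter class and the word search, with GACGC, were tested on simulated data. The other classes and words were not tested in that way. Lists were described by counts beside those of all genes or peaks, with no test of a list, and shares carry no interval. The labels call the samples biological replicates and give each its own biosample.

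The members, the other Wnt genes, the words and the alternatives were chosen with earlier results of these data known. All 10 members, all their optimal peaks and the nearest coding start site of each, the strongest weaker peak of each and the other Wnt genes with an optimal summit near a start site (1 kb) were to be named. Python 3.11.15, pandas 2.3.3, numpy 2.4.6, scipy 1.17.1 and matplotlib 3.10.9 were used.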

Additional observations from a re-analysis of the deposited data

How the results depend on the processing

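The count of members with an optimal summit in the gene or within 5 kb, 9, fell to 5 among the 1922 strongest optimal peaks and ran from 6 to 10 under all other windows, matching rules and left-out replicates tried. The 21 optimal peaks became 13 inside the genes alone, 6 among the 1922 strongest, and 9 when only peaks nearest to the member's start site were counted, a choice made after seeing the data. Leaving out a replicate and asking for strong matches in both others, by construction a stricter rule, gave 12 to 14 peaks. The 4 members with an optimal summit close to a start site (1 kb) became 7 within 5 kb, 1 among the 1922 strongest and 9 in the relaxed pooled list, with 1 to 2 when a replicate was left out. Of the 35 other Wnt genes, 7 had such a summit among the 1922 strongest, in place of 14. Shares over all genes were not recomputed for the 1922 strongest peaks or with a replicate left out. The 159 pooled peaks became 85 in the stronger part of the pooled list. Word counts depended on the window. In the narrower window GACGC was at 0, CGATA at 1 and CTTTGA at 0 of the 21 peaks, and in the wider window TAAACA was at 4, GAGAG at 2, CTTTGA at 2, GCCGCC at 1 and CAGGTA at 1. The count matched in all 3 replicates ran from 13 to 20 under other matching rules. With a replicate left out, 19 to 21 peaks were matched in both others. These counts and the promoter count (9 to 11) stayed within 1.5 times of 19 and 9. Divided by the median of the whole replicate list, another denominator, the relative signal of all 19 peaks was higher, and with matches within 250 bp arr peak 5 moved to 0.660, against 0.386. No paired analysis was possible because there was only 1 group of samples, though peaks were compared within replicates. The depth behind each peak is unknown, so peaks near the lower end of the optimal list cannot be told from those just under it.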
